A study of Mus musculus with 9 samples.

Results

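The hypothalamus, the brain region that sets hunger, thirst and the stress response, was profiled by RNA sequencing in Clic1 KO mice and their WT littermates, all male and all fed normal chow. Described here are 10 immediate early genes of neuronal activity: the AP-1 subunits Fos, Fosb, Fosl2, Jun and Junb, the zinc finger factors Egr1 and Egr3, the orphan nuclear receptor Nr4a1, the synaptic regulator Arc and the phosphatase Dusp1. All 10 were measured, out of 14351 genes in the table. They were chosen by name as a functional family, with earlier KO against WT values of these libraries already known, so the differences between KO and WT below are a description and carry no test.

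Each library came from 1 mouse, and there were 5 KO libraries (replicates 2, 4, 6, 8 and 10) and 4 WT libraries (replicates 1, 3, 9 and 11). Per the study's methods the deletion is present in the whole body and was kept on a CD-1 background, whereas the sample labels give the strain C57b/6J. The age of these mice and the hour at which tissue was taken were not given in the sources used here. Replicate 10 is titled and labelled as WT, but its description and the study place it with the KO mice, and it was grouped as KO. The difference of each gene is therefore also given with it as WT, and the summary values also without it. The labels also name perigonadal adipose tissue in a protocol field. The 12 hypothalamic markers listed (among them Pomc, Agrp, Avp, Hcrt and Pmch) were all measured, and none was at 0 in any library. The same held for the measured markers of neighbouring tissue, so it does not tell the hypothalamus from them. No list of adipose markers was examined.

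Immediate early genes are the genes a neuron switches on first when it fires, within minutes and without making new protein. Calcium entry and synaptic input act through kinases on transcription factors already bound to their promoters, CREB at the cAMP response element (CRE) and SRF with its partners at the CArG box, and the messages are then cleared quickly. Their products are mostly transcription factors that drive a second, slower wave of genes, and Fos in particular is the usual mark of recently active hypothalamic neurons after fasting, feeding, dehydration or stress.

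The promoters of 7 of the 10 genes were matched in the RefSeq promoter table on GRCm38.p6, each from 250 bases before to 50 bases after the transcription start. The half-site of the CRE, TGACG read on either strand, was found in 5 of the 7 (Fos, Fosb, Junb, Nr4a1 and Dusp1) and in 20.8% of all 32851 windows of that length. The stretches that hold it are printed because it is the letter pattern most of these promoters shared, 5′ to 3′ along the gene's own strand, with each half-site in capitals on whichever strand it was read. In Fos the capitals also mark the TATA box, TATAAA, and in Dusp1 they also mark the full palindromic CRE, TGACGTCA.
Fos promoter, chr12:85473756-85473867, plus strand: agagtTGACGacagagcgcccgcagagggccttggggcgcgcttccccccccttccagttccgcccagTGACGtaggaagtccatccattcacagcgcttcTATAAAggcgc
Fosb promoter, chr7:19310073-19310133, minus strand: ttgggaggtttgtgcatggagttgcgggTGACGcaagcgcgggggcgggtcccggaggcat
Junb promoter, chr8:84978822-84978882, minus strand: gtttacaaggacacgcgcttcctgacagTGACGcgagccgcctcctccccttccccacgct
Nr4a1 promoter, chr15:101266608-101266815, plus strand: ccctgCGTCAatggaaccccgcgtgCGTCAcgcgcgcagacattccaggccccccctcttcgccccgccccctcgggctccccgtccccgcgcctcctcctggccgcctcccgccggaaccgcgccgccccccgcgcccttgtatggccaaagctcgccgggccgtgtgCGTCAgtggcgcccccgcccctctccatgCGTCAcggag
Dusp1 promoter, chr17:26508603-26508668, minus strand: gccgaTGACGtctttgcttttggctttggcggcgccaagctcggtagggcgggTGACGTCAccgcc

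In the Fos promoter the half-sites began at -129 and -66 from the transcription start and the TATA box at -33. Nr4a1 held 4 half-sites, more than any other of the matched members. Only Dusp1 held the full CRE, at -143 to -136, a pattern found in 1.79% of all windows, and its letters contain a half-site on each strand. TATAAA, searched on the gene's own strand, was also found in Junb at the start used for its window, and in 8.32% of windows. The GENCODE start of Junb lies downstream of that start, so these letters are upstream of the GENCODE start. The site bound by EGR proteins, GCGNGGGCG on either strand, was found in Fosl2, Fosb and Nr4a1 and in 5.55% of windows. Neither the CArG box (1.63% of windows) nor the AP-1 site TGANTCA (7.81% of windows), each searched on both strands, was found in any of the 7 windows. Jun was matched and held none of the 6 patterns searched. A match is a match of letters, and no match says only that the letters are not in this window.

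Levels are normalized CPM, a gene's reads relative to all reads of its library, as the authors left them after scaling by the trimmed mean of M-values. The size of the steps between low CPM values gave approximate totals of 5.47 to 20.8 M reads in KO libraries, the largest in replicate 10 and the smallest in replicate 6, and of 7.28 to 11 M reads in WT libraries. Estimated reads behind 1 value of an immediate early gene ran from 17 (Fosb in KO replicate 6) to 1176 (Jun in KO replicate 10). For all 10 genes the fewest reads were in KO replicate 6, for Junb in a tie with KO replicate 8 at 72. Clic1, the deleted gene, was at 0.733 to 1.93 CPM in the KO libraries and 3.58 to 5.52 CPM in the WT libraries, with no overlap. Replicate 10, whose labels conflict, was at 1.43 CPM, inside the range of the other KO libraries and below every WT library. In the fit over all genes (limma on log2(CPM + 0.1), Benjamini-Hochberg adjustment) Clic1 differed by a log2 of -1.80 (SE 0.27, adjusted p = 0.0153).

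In WT hypothalamus the 10 genes differed widely in level. Per kilobase of the longest annotated transcript, Jun was highest at 15.9 CPM per kb (14.5 to 17.9 over the 4 libraries) and Egr1 next at 12.3 (12 to 13.0), with no overlap between them or with the genes that follow. Junb (9.33 CPM per kb), Dusp1 (9.01), Fos (7.80), Nr4a1 (6.81) and Arc (5.86) came next, each overlapping its neighbour in this order. Fosl2 (2.70 CPM per kb, 2.02 to 3.46) lay clear of Arc above it and of the lowest pair, Egr3 (1.62) and Fosb (1.47), which overlapped each other.

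The mean of all 10 genes was lower in KO than in WT hypothalamus, by amounts that ran from a log2 difference of -0.91 for Fos to -0.05 for Jun. Their median difference was -0.35, beside 0.00 over all genes. The mean log2 value was lower in KO for 49.6% of all genes tested, and for 10 of 10 of these genes also without replicate 10, without KO replicate 4 and with replicate 10 as WT, although the median difference then became -0.26, -0.44 and -0.16. Jun was the exception when another library was left out, with a difference of 0.01 without WT replicate 3. In a bulk sample, fewer cells that express a gene and less RNA of it per cell cannot be told apart.

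**Figure D1:**
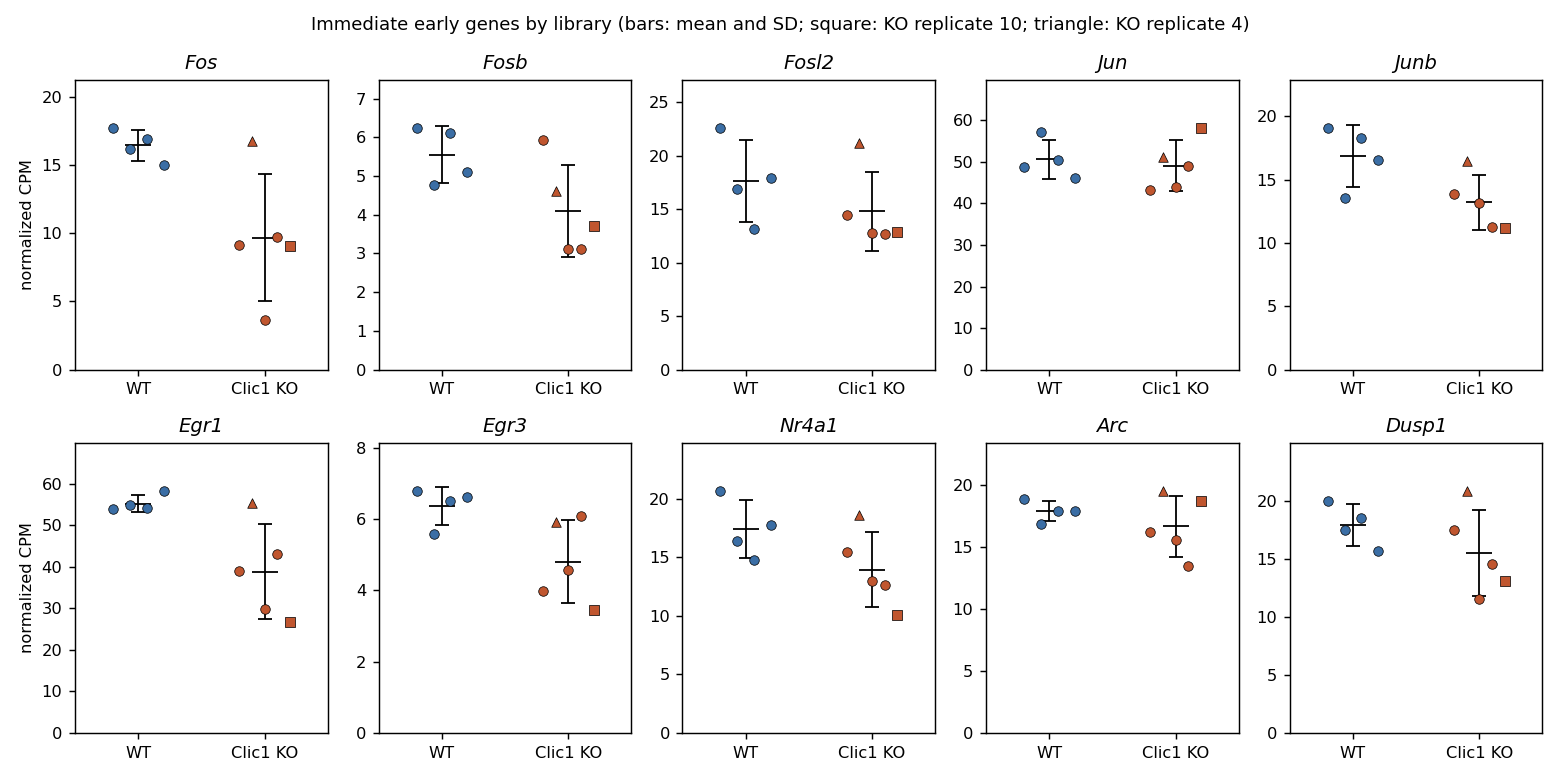
Normalized CPM of the 10 immediate early genes (vertical axes, linear from 0) in each WT library (blue, 4) and each Clic1 KO library (orange, 5), with the mean and SD of each group as bars. The triangle is KO replicate 4 and the square KO replicate 10. In Fos and Egr1 the WT points lie close together, from 15.0 to 17.7 and from 53.8 to 58.1 CPM, and all KO points but the triangle lie below them.

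Fos, the AP-1 subunit induced most sharply by firing, was at 17.7, 16.2, 16.9 and 15.0 CPM in WT replicates 1, 3, 9 and 11. It was at 9.14, 16.7, 3.66, 9.70 and 9.10 CPM in KO replicates 2, 4, 6, 8 and 10. The WT libraries were within 1.18-fold of each other, and 4 of the 5 KO libraries lay below the lowest of them, while KO replicate 4 was inside their range and so the groups overlapped. The means were 16.5 ± 1.15 (SD, n = 4) in WT and 9.67 ± 4.65 (SD, n = 5) in KO, a difference of -41.2% and a log2 difference of -0.91 (SE 0.32). The lowest value, that of KO replicate 6, rested on about 20 reads, whose exact Poisson interval (95%, counting error only) runs from 2.24 to 5.66 CPM. That interval lies below 12.3 CPM, the lower bound for WT replicate 11, the lowest WT library. The log2 difference of Fos was -0.60 without KO replicate 6 and -0.76 with replicate 10 as WT.

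Fosb, whose truncated product builds up with repeated stimulation, was at 6.24, 4.77, 6.10 and 5.10 CPM in WT replicates 1, 3, 9 and 11 and at 5.92, 4.61, 3.11, 3.13 and 3.71 CPM in KO replicates 2, 4, 6, 8 and 10. KO replicate 2 was inside the WT range and the others below it. The log2 difference was -0.46 (SE 0.21), and -0.33 with replicate 10 as WT. Fosl2, which encodes Fra-2 and is a slower and more lasting member of the family, was at 22.6, 16.9, 13.2 and 17.9 CPM in WT and at 14.4, 21.2, 12.8, 12.7 and 12.9 CPM in KO, in the same order of replicates. Here KO replicate 4 was higher than every other library but WT replicate 1, and the SD of the log2 values in KO was 0.993 times that in WT. The log2 difference was -0.26 (SE 0.18), and -0.13 (SE 0.19) with replicate 10 as WT.

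Junb and Jun encode the partners that Fos proteins need to bind DNA. Junb was at 19.1, 13.6, 18.3 and 16.5 CPM in WT replicates 1, 3, 9 and 11 and at 13.9, 16.5, 13.2, 11.3 and 11.2 CPM in KO replicates 2, 4, 6, 8 and 10, a log2 difference of -0.35 (SE 0.14), with replicates 6, 8 and 10 below the WT range. Jun was at 48.8, 57.1, 50.4 and 46.1 CPM in WT and at 43.3, 51.3, 44.0, 48.9 and 58.2 CPM in KO, a log2 difference of -0.05 (SE 0.10) that was smaller than its error. KO replicate 10 had the highest Jun of all 9 libraries and the lowest Junb, and with it as WT the differences were -0.18 (SE 0.17) for Junb and -0.15 (SE 0.09) for Jun.

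Egr1, a zinc finger factor used beside Fos as an activity mark, was the steadiest of the 10 genes in WT mice, at 53.8, 54.8, 54.1 and 58.1 CPM in replicates 1, 3, 9 and 11, which were within 1.08-fold of each other. In KO replicates 2, 4, 6, 8 and 10 it was at 39.0, 55.4, 29.9, 43.0 and 26.7 CPM. As for Fos, KO replicate 4 was inside the WT range and the 4 others lay below it. The means were 55.2 ± 1.99 (SD, n = 4) and 38.8 ± 11.4 (SD, n = 5), a difference of -29.8% and a log2 difference of -0.56 (SE 0.17), which was -0.43 without replicate 10 and -0.23 with replicate 10 as WT.

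Egr3, a relative of Egr1 that binds the same kind of site, was at 6.78, 5.60, 6.50 and 6.61 CPM in WT and at 3.99, 5.93, 4.58, 6.10 and 3.46 CPM in KO, in the same order of replicates. KO replicates 2, 6 and 10 lay below the WT range and replicates 4 and 8 inside it. The log2 difference was -0.43 (SE 0.19), and -0.15 with replicate 10 as WT.

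Nr4a1 (Nur77), a nuclear receptor with no known natural ligand that is induced as fast as Fos, was at 20.6, 16.4, 14.8 and 17.8 CPM in WT replicates 1, 3, 9 and 11 and at 15.5, 18.6, 13.0, 12.7 and 10.04 CPM in KO replicates 2, 4, 6, 8 and 10. KO replicates 6, 8 and 10 lay below the lowest WT library, and the log2 difference was -0.34 (SE 0.17). That difference was -0.23 (SE 0.14) without replicate 10, -0.25 (SE 0.18) without WT replicate 1 and -0.07 (SE 0.19) with replicate 10 as WT.

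Arc and Dusp1 encode no DNA-binding factor. Arc, which acts at synapses in the removal of AMPA receptors, was at 18.9, 16.9, 17.9 and 17.9 CPM in WT and at 16.2, 19.5, 15.6, 13.4 and 18.7 CPM in KO, so that KO libraries lay on both sides of the WT range, and its log2 difference was -0.11 (SE 0.12). Dusp1, a phosphatase that switches off the MAP kinases, was at 19.99, 17.5, 18.5 and 15.7 CPM in WT and at 17.5, 20.8, 11.5, 14.5 and 13.1 CPM in KO, a log2 difference of -0.24 (SE 0.16). With replicate 10 as WT the differences were -0.17 (SE 0.11) for Arc and -0.09 (SE 0.17) for Dusp1. Both genes were highest of all 9 libraries in KO replicate 4. Dusp1 is the only one of the 10 genes on the chromosome of Clic1, chromosome 17, with its annotated end 8.49 Mb from Clic1.

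**Figure D2:**
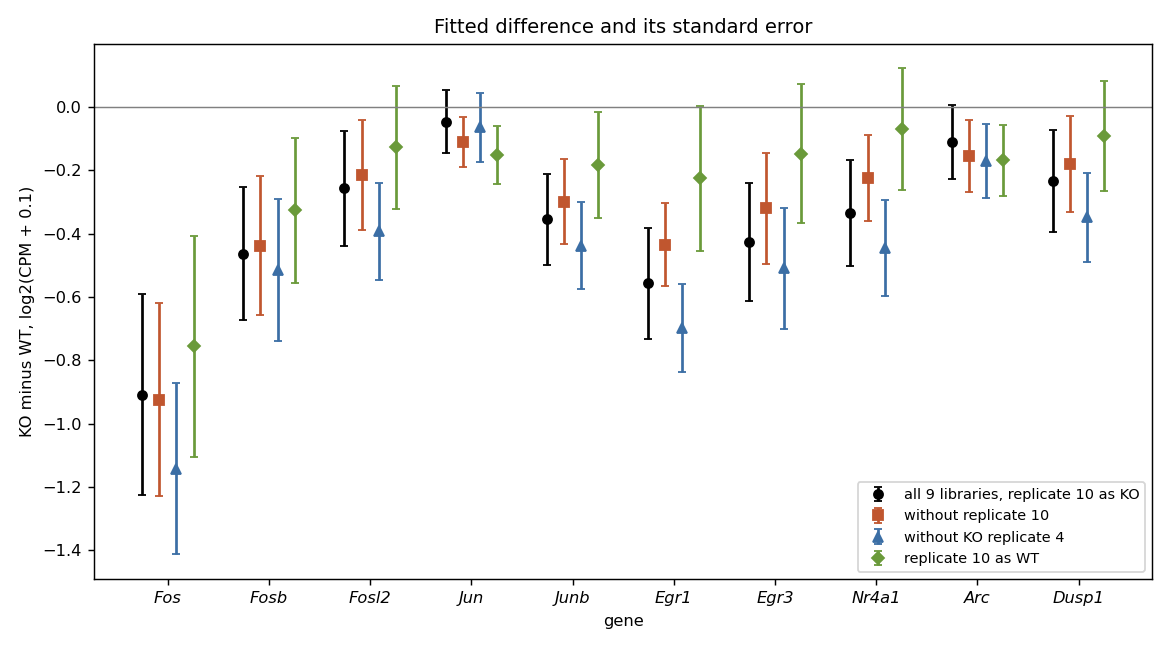
Fitted KO minus WT difference of each gene on the log2(CPM + 0.1) scale (vertical axis) with its standard error as bars, from all 9 libraries (black circles), without replicate 10 (orange squares), without KO replicate 4 (blue triangles) and with replicate 10 as WT (green diamonds). All points lie below 0, those of Fos lowest (-0.91 with all libraries), and with replicate 10 as WT the differences of Egr1 and Egr3 were -0.23 and -0.15.

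None of the 10 genes passed an adjusted p of 0.05 in the fit over all genes, against 0.286% of all genes tested (41 genes). At an unadjusted p under 0.05, 5 of the 10 were called and all 5 were lower in KO, against 6.5% of all genes in either direction and 3.07% lower in KO. That count was 3 without replicate 10 (10.5% of all genes), 8 without KO replicate 4 (6.82%) and 0 with replicate 10 as WT (6.65%). It was 2 without WT replicate 1 (4.68%) and 2 without WT replicate 11 (5.09%). In none of the 10 did the KO and WT libraries separate fully, which 3.41% of all genes did. Leaving KO replicate 4 out, a choice made after its values were seen, Fos and Egr1 separated from WT, as did 2.7% of all genes in that direction. Nothing is read from these counts, since the genes were chosen with the contrast known.

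In most of these genes the KO libraries were more uneven than the WT libraries. The SD of the log2 values was larger in KO in 9 of the 10 genes, Fosl2 being the other, against 72.6% of all genes. Leaving out replicate 10 it was again larger in 9 of 10, with Jun the other, against 48.7% of all genes. The ratio of the KO to the WT SD was 8.21 for Egr1 and 7.68 for Fos, and 3.24 for Arc, 2.83 for Egr3 and 2.31 for Dusp1. It was 2.06 for Fosb and 1.64 for Nr4a1, and nearer to 1 for Jun (1.35), Junb (1.06) and Fosl2 (0.993). Across the KO mice Fos ranged over 4.57-fold, Egr1 over 2.08-fold and Jun over 1.34-fold.

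Read by library, the KO mice differed from each other across the whole family. The median log2 difference of the 10 genes from their WT means was -0.57 in KO replicate 10, -0.45 in replicate 6, -0.43 in replicate 8 and -0.24 in replicate 2, but 0.03 in replicate 4. All 10 genes lay below the lowest WT library in KO replicate 6, as did 23.4% of all genes there. The counts were 8 of 10 in replicate 8 (21.3% of all genes), 8 in replicate 10 (34.8%), 5 in replicate 2 (22.6%) and 1, Fosb, in replicate 4 (19.9%). The WT libraries had medians of 0.14, -0.06, 0.02 and -0.01 in replicates 1, 3, 9 and 11. KO replicate 4 was thus like a WT library in these genes, while its Clic1 was at 1.32 CPM, inside the range of the other KO libraries.

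**Figure D3:**
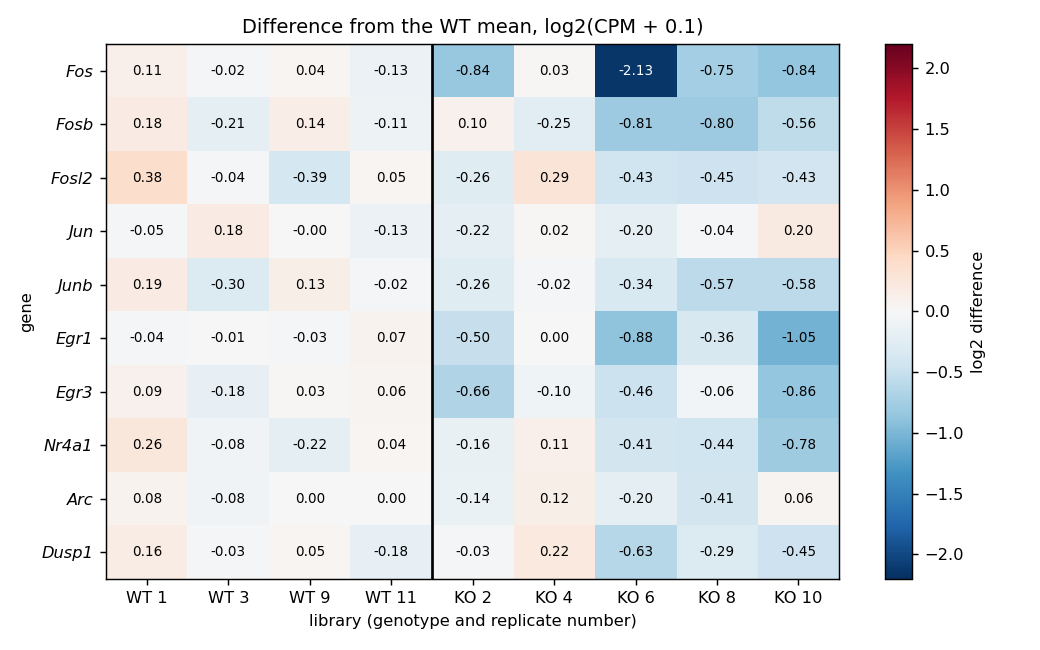
Log2(CPM + 0.1) of each gene (rows) in each library (columns, WT left of the black line) minus its WT mean, with red above and blue below. The column of KO replicate 4 is near 0 throughout, from -0.25 to 0.29, whereas that of KO replicate 6 is below 0 in all 10 rows and reaches -2.13 in Fos.

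The library with the lowest value differed between genes, but several of these places were near ties whose order counting error leaves unresolved. KO replicate 6 had the lowest Fos, Fosb and Dusp1 of all 9 libraries, and replicate 10 the lowest Egr1, Egr3, Nr4a1 and Junb. Fosb was at 3.11 and 3.13 CPM in KO replicates 6 and 8, on about 17 and 20 reads. Junb was at 11.2 and 11.3 CPM in replicates 10 and 8, and Fosl2 at 12.7, 12.8 and 12.9 CPM in replicates 8, 6 and 10. Replicate 8 had the lowest Arc and Fosl2 but an Egr3 of 6.10 CPM, inside the WT range. Replicate 2 had the lowest Jun, and a Fos of 9.14 CPM with a Fosb of 5.92 CPM, inside the WT range. Replicate 10 was at or above the WT mean in Jun and Arc. By estimated depth, KO replicates 6 (5.47 M reads) and 8 (6.35 M), with medians of -0.45 and -0.43, were the shallowest, replicates 4 (7.56 M) and 2 (7.71 M) came next, and replicate 10 (20.8 M), with the lowest median, was the deepest. The part of depth in these values was not tested.

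With the group means removed, most pairs of the 10 genes varied in the same direction from mouse to mouse. The median Pearson r over their 45 pairs was 0.44 across the 9 libraries, with 19 pairs over 0.5 and 8 below 0, beside a median of 0.00 over all pairs of the 12072 genes whose mean reached 5 CPM. It was 0.52 without replicate 10 and 0.17 without KO replicate 4. These correlations are a description over 9 points that share library, depth and scaling.

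The closest pair was Fosl2 and Nr4a1 at r = 0.86, followed by Fos and Dusp1 at 0.84. Against the mean of the other 9 genes, Dusp1 was the most closely tied at r = 0.91, with Fosl2 (0.77), Fos (0.76), Nr4a1 (0.75) and Egr1 (0.72) next. Jun stood apart at -0.12, and its r with Junb was -0.45, the lowest of all pairs. Without replicate 10, where Jun was high and most of the others low, Jun's r with the others became 0.22 and Arc's went from 0.46 to 0.74. Fos with Egr1 went from 0.69 to 0.95. Leaving out KO replicate 4 instead weakened the ties. Of the 45 pairs, 8 were then over 0.5 and 16 below 0, with r from -0.77 to 0.80. Values of single pairs and genes without that library are not given here.

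**Figure D4:**
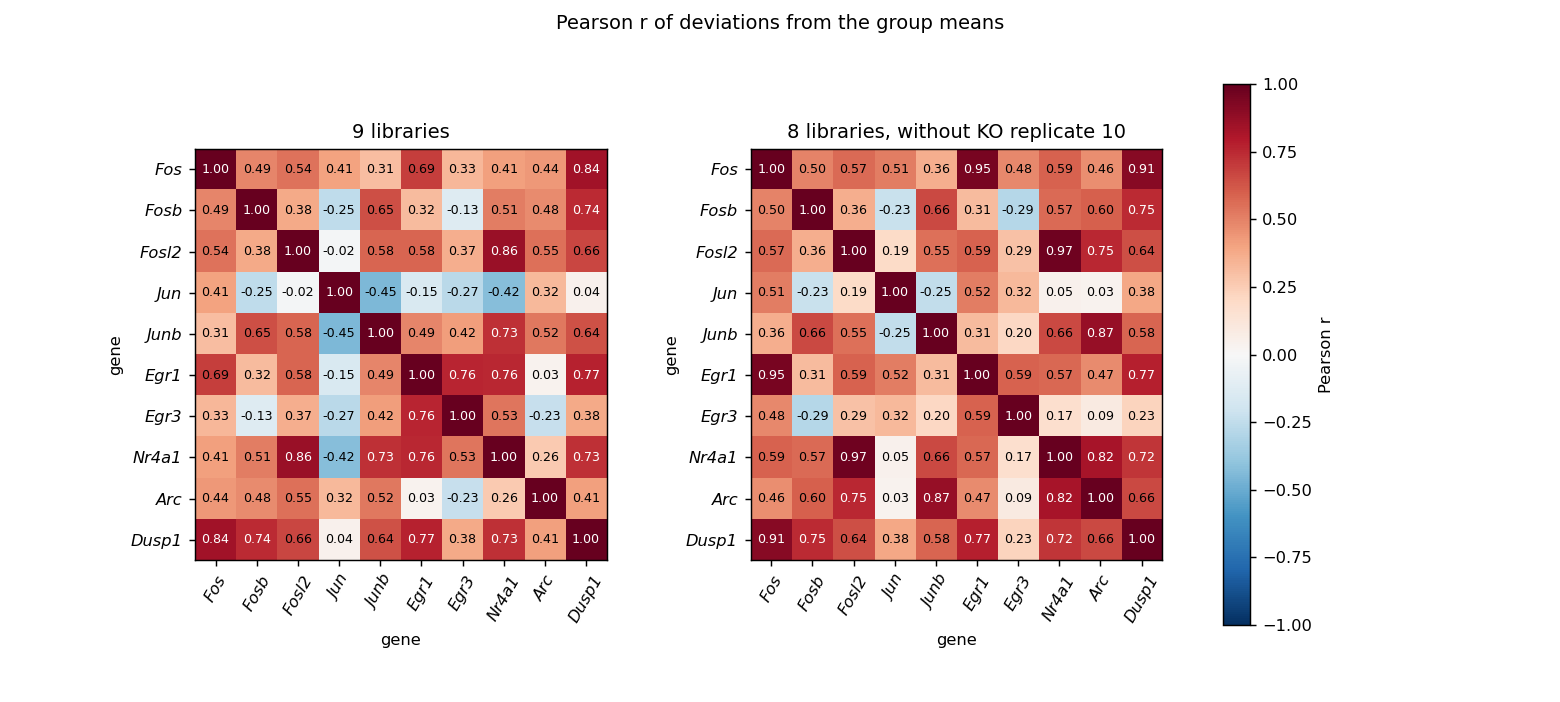
Pearson r between each pair of genes after removal of the group means, on log2(CPM + 0.1), over all 9 libraries (left) and over 8 without KO replicate 10 (right), with red positive and blue negative. Apart from the row of Jun and some pairs of Egr3, Fosb and Arc most cells are positive, and the row of Jun turns less negative on the right, as in its r with Junb of -0.45 and -0.25.

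The genes outside the family whose levels most resembled the mean standardized profile of the 10 over the 9 libraries were Stk4 (a kinase of the Hippo pathway, r = 0.93), Bysl (a ribosome assembly factor, 0.92), Tmem70 (an assembly factor of the ATP synthase, 0.92), Frem2 (a matrix protein, 0.91) and Amz2 (a metalloprotease, 0.90). Crhr1, the receptor of corticotropin-releasing hormone, followed at 0.89, then Plaat1, Prkab1, Gpr157 and Tmem87a at 0.88, 0.88, 0.88 and 0.87. They were ranked among 12063 genes, and none passed an adjusted p of 0.05 in the limma fit of KO against WT. Group means were not removed for this ranking, so the difference of the 10 genes between KO and WT is part of the profile. A lower mean in KO among the closest genes therefore follows from the ranking and is not a result. Crhr1, as an example, was at 6.18 ± 0.178 CPM (SD, n = 4) across WT libraries and 5.09 ± 0.717 CPM (SD, n = 5) across KO libraries.

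In the wider set of rapid, activity-linked genes, those with higher and lower means in KO were nearly balanced. Of 39 further rapid response genes listed, 37 were measured, and none passed an adjusted p of 0.05 in limma in either direction. A lower mean in KO was found for 21 of these genes, where 49.6% of all genes had one. Their median log2 difference was -0.06, beside 0.00 for all genes. At an unadjusted p under 0.05 there were 2 of 37, where 6.5% of all genes were called, a like share. Both were higher in KO: Ier5, a stress-responsive nuclear factor, with a log2 difference of 0.52 (SE 0.14, adjusted p = 0.372), and Nfkbiz, an inhibitor-like regulator of NF-kappaB, with 0.40 (SE 0.14, adjusted p = 0.594). Ier5 was at 10.4, 10.3, 10.99, 11.6 and 15.2 CPM in KO replicates 2, 4, 6, 8 and 10, all above the WT libraries at 9.41, 7.25, 7.80 and 7.85 CPM. Gadd45g, a growth arrest gene, came next by p, with 14.5 CPM in KO replicate 10, where the remaining KO libraries were at 4.22 to 7.33 CPM and WT libraries at 3.31 to 4.56 CPM.

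Of 8 other genes of the AP-1 and related ATF families, 5 were measured and none passed (median log2 difference 0.10). At an unadjusted p under 0.05 there were 0, where 6.5% of all genes were called. The 3 with the smallest p were Jdp2, a repressor that pairs with Jun, with a log2 difference of 0.19 (SE 0.12), Atf2 with -0.12 (SE 0.10) and Atf7 with -0.14 (SE 0.17), whose KO replicate 10 was at 38.2 CPM while the remaining KO libraries were at 68.9 to 73.3 CPM.

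The second wave was measured by 17 delayed genes, all in the table. None passed, and 14 had a lower mean in KO, where 49.6% of all genes did. The median log2 difference was -0.08. At an unadjusted p under 0.05 there were 3, where 6.5% of all genes were called. Nothing is read from these counts, since the list was chosen with earlier results of these data known. Rasgrp1, a calcium-linked activator of Ras, averaged 93.0 ± 5.32 CPM (SD, n = 4) across WT libraries and 79.8 ± 6.71 CPM (SD, n = 5) across KO libraries, a log2 difference of -0.22 (adjusted p = 0.594 in limma). Gpr3, a receptor that raises cAMP without a ligand, had a log2 difference of -0.58 (SE 0.24, adjusted p = 0.72 in limma). Scg2, secretogranin II of the secretory granules, lay the other way at 0.24 (SE 0.09, adjusted p = 0.648 in limma), with KO libraries at 781 to 1057 CPM and WT libraries at 679 to 780 CPM.

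Upstream of these genes, 27 transcription factors, coactivators and kinases were measured, all of those listed. None passed an adjusted p of 0.05, and none an unadjusted p of 0.05, where 6.5% of all genes did. The median log2 difference was -0.02, with 15 lower in KO, where 49.6% of all genes were lower. Camk4, a calcium-dependent kinase that acts on CREB, had the smallest p with a log2 difference of 0.19 (SE 0.10). Crtc1, a coactivator of CREB, had -0.28 (SE 0.18), with KO replicate 10 at 81.5 CPM and the remaining KO libraries at 149 to 177 CPM. Srf itself had 0.16 (SE 0.10).

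**Figure D5:**
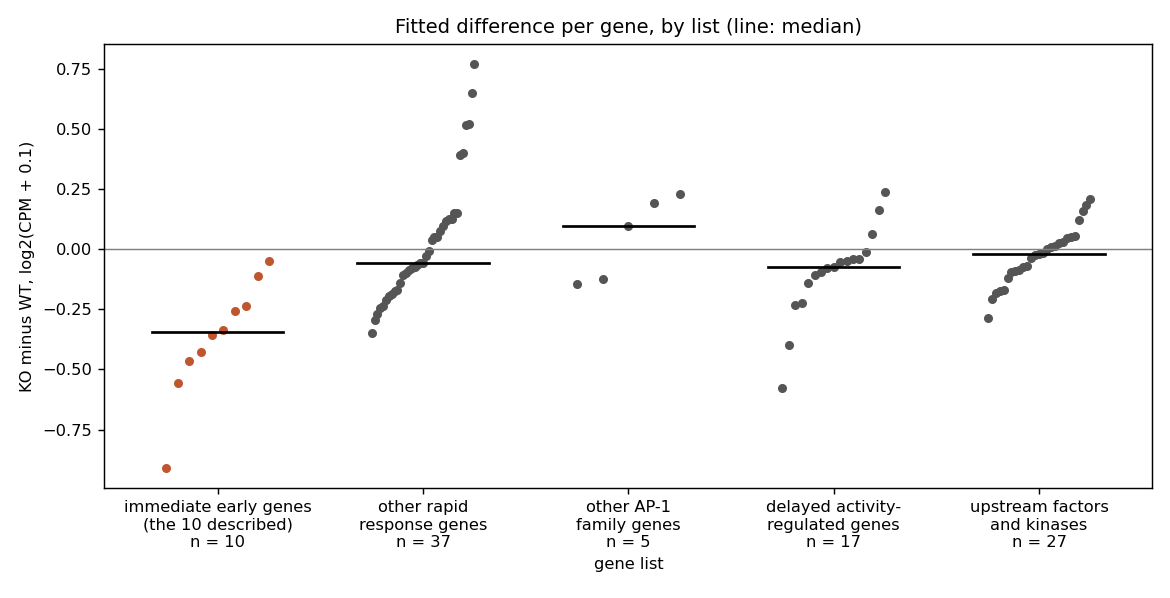
Fitted KO minus WT difference on the log2(CPM + 0.1) scale (vertical axis) of each measured gene, sorted within 5 lists (horizontal axis), with the median of each list as a line. The 10 immediate early genes, chosen with this contrast known, have a median of -0.35, and the lists of 37, 5, 17 and 27 genes have medians of -0.06, 0.10, -0.08 and -0.02.

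Levels of markers of cell types, neighbouring tissue and stress were set beside these values. The summed CPM overlapped between KO and WT in 15 of 16 lists. The neuron list of 6 genes spanned 3104 to 3273 CPM over KO libraries and 3075 to 3486 CPM over WT libraries. The list of 9 glucocorticoid response genes, which rise with stress hormone, spanned 415 to 481 CPM over KO libraries and 437 to 534 CPM over WT libraries. The exception was the hypothalamic list, which spanned 699 to 851 CPM over KO libraries and 633 to 680 CPM over WT libraries and in which 1 of 12 genes, Avp, passed an adjusted p of 0.05. The heat shock list, 10 genes, overlapped but held 2 genes past that threshold in limma. They lay in opposite directions, Hspa1a with a log2 difference of 1.10 (SE 0.19, adjusted p = 0.0297 in limma) and Hspa1b with -1.15 (SE 0.15, adjusted p = 0.00604 in limma). The 2 genes are near-identical copies that share reads, so both values are uncertain. The part of this sharing in their differences was not tested. KO replicate 10 was beyond the lowest or highest of the other 8 libraries in 9 of the 16 lists. Its heat shock list summed to 3277 CPM, where the remaining KO libraries gave 2104 to 2180 CPM and WT libraries 2217 to 2349 CPM, and its striatal list, 6 genes, summed to 98.6 CPM, where they gave 111 to 118 CPM and 110 to 122 CPM. No marker measured was at 0 in any library, but the authors had removed low genes, and some listed markers were not in the table. Those measured were 3 of 6 for choroid plexus, 3 of 6 for pituitary, 2 of 5 for red blood cells and 4 of 6 for cortex and hippocampus. They were 5 of 7 for thalamus and 5 of 6 for the suprachiasmatic nucleus. The part of the differences in marker lists in the values of the immediate early genes was not tested.

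By the GENCODE annotation of GRCm38, Jun is at chr4:95049034-95052222, Fosl2 at chr5:32135801-32157842, Fosb at chr7:19302696-19310051, Junb at chr8:84974484-84978718 and Fos at chr12:85473890-85477273. Egr3 is at chr14:70077203-70082614, Arc at chr15:74669083-74672570, Nr4a1 at chr15:101254269-101274795, Dusp1 at chr17:26505590-26562128 and Egr1 at chr18:34859823-34864984. The span of Dusp1 includes a transcript that starts far upstream of the promoter printed above, and Nr4a1 likewise starts upstream of its printed promoter. Junb starts downstream of the start used for its promoter window.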

How the data were processed

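Hypothalamic RNA with an integrity number above the study's limit was sequenced from 9 mice. Per the labels and the study's methods, the authors trimmed reads with Trimmomatic 0.38, aligned them to GRCm38.p6 with STAR 2.5.1a, quantified genes with RSEM 1.3.0, removed low genes and deposited a signal of CPM scaled by edgeR's TMM factors. Whole reads could not be recovered for nearly all genes (81.0% to 86.5% of values up to 2.5 CPM were within 0.03 of a whole read), so no count test was run. The deposited table has 1 column that matches no sample, which was not used, and the authors' table of fold changes and p-values was used only to pair identifiers with symbols.

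Values were transformed to log2(CPM + 0.1), which understates changes of low genes, and limma 3.58.1 (R 4.3.3) was run with condition as its only term (lmFit, then eBayes with trend). P-values were adjusted by Benjamini-Hochberg across the 14351 genes, and 0.05 was the threshold. The fit was tested on simulated data. The 10 members and all lists were chosen with earlier results of these data known. Genes named were all members, in each pathway list those past the threshold or else the 3 with the smallest p, the 10 closest in profile, and Clic1. Fosl1, Batf and other listed genes not in the table were not analysed here.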

Additional observations from a re-analysis of the deposited data

Results flagged for a closer look

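Among 20 groups checked (10 genes in KO and in WT), 1 stood out by the gap of its extreme library. Fosl2 in KO replicate 4 was at 21.2 CPM, while the remaining 4 KO libraries were at 12.7 to 14.4 CPM, a gap of 0.795 of the whole range. Chance gives such a flag in about 1 group in 20.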

How the results depend on the processing

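None of the 10 immediate early genes and none of the pathway genes passed the threshold under any of the 16 alternatives run. Over all genes the number past it was 41, and became 27 with a filter at a mean of 5 CPM, 135 with sample weights, 5 with replicate 10 as WT, and 18 to 87 when 1 replicate was left out, with 87 without KO replicate 10 and 18 without WT replicate 1. The median log2 difference of the 10 genes was -0.16 with replicate 10 as WT and -0.44 to -0.26 when 1 replicate was left out. Of 159 differences of single genes, 2 moved by more than the spread of their replicates (Egr1 and Egr3 with replicate 10 as WT), and 1 was higher in KO, that of Jun without WT replicate 3 (0.01). The median pairwise r was 0.62 about the mean of all 9 libraries, 0.61 with replicate 10 as WT, and 0.17 to 0.53 when 1 replicate was left out. The cause of these shifts was not tested. No paired analysis was run. The litter of each mouse was not among the sample details used here, and the KO and WT libraries share no replicate numbers. Fosb, Fos and Egr3 rested on the fewest estimated reads, down to 17, 20 and 25 in KO replicate 6.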
